A study of Mus musculus with 40 samples.

Results

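The genes of the glutathione transferases (GST), the UDP-glucuronosyltransferases and related UDP-glycosyltransferases (UGT), and the cytosolic sulfotransferases (SULT) were examined in livers of female mice lacking Nampt in hepatocytes. Members were taken by gene symbol (the letter classes of Gst, the Ugt1a, Ugt2a, Ugt2b, Ugt3a, and Ugt3b series, and Sult1 to Sult5) and were kept when they held at least 10 counts in at least 3 of the 38 libraries used. Of 62 symbols in the count table of 55487 genes, 57 were members, namely 21 of 22 GST, 19 of 21 UGT, and 17 of 19 SULT genes. Gstt4, Ugt2a1, Ugt2a2, Sult1c1, and Sult2b1 did not reach the count minimum. The rule used no difference between the groups, and all 57 members passed the filter on low counts of the test. Gsta1 reached 10 counts in 6 libraries, all of them HNKO, so it became a member only through the group where it is high.

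HNKO mice carried Nampt fl/fl alleles and Alb-Cre+/-, in which the albumin promoter drives Cre in hepatocytes, and WT mice were their floxed littermates. All mice were female, of the C57BL/6JBomTac background, and were 9 weeks old when they were switched from breeding chow to a purified control diet (PD). Whole liver was taken after 3, 6, 12, or 21 days, numbers that the sample labels give as age and the study's methods as days of PD. Each library is total RNA depleted of rRNA from 1 liver, with n = 5 WT and 5 HNKO at day 3, 4 and 5 at day 6, 5 and 6 at day 12, and 5 and 3 at day 21, after 2 HNKO libraries of day 21 described as having failed quality control were left out. Since whole liver also holds cells that keep Nampt, fewer hepatocytes and less of a transcript per hepatocyte cannot be told apart in these data.

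Conjugation is the second phase of the handling of foreign and endogenous compounds by the liver. GST enzymes attach glutathione to electrophiles, UGT enzymes attach a sugar (mostly glucuronic acid) to bilirubin, steroids, and drugs, and SULT enzymes attach a sulfate group from the donor PAPS to phenols, steroids, and bile acids. The products are more soluble in water and leave the hepatocyte through transporters of the ABC family. Hepatocytes hold most of these enzymes in the liver, and several of the genes are regulated by the receptors CAR, PXR, and PPARα and by the factor NRF2.

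Libraries held 16151037 to 64181492 counts on genes. Values are CPM, the counts of a gene relative to the effective library size (TMM). Differences are log2 fold changes of HNKO against WT with the standard error (SE), and a gene was called at an adjusted p-value under 0.05 over the 20297 genes tested, by edgeR's legacy quasi-likelihood test with TMM factors and group means alone (the standard edgeR test) unless another fit is named. Nampt, the deleted gene, measured 57.4 to 155 CPM in WT and 30.3 to 82.0 CPM in HNKO libraries, was called lower at days 3, 6, and 12, and had an adjusted p of 0.161 at day 21, where 3 of 3 HNKO libraries were below all WT libraries. The 10 hepatocyte markers listed were detected in every group, 2 of them (Alb and Ttr) were called lower at day 6, and none was called at the other days. The summed CPM of 8 bile duct and oval cell markers was 42.2 to 61.4 in WT and 119 to 766 in HNKO libraries, with the 4 highest values in HNKO libraries 2 and 23 of day 3, 29 of day 6, and 37 of day 21. Of the 8 bile duct markers 6, 6, 5, and 4 were called higher at days 3, 6, 12, and 21, and of 8 stellate cell markers 4, 4, 2, and 3. Libraries 23, 29, and 37 also had the lowest summed hepatocyte markers of their groups, and library 29 was the lowest of the 5 HNKO libraries of day 6 for 30 of the 57 conjugation genes, as was library 37 of the 3 libraries of day 21 for 35 of them. Counts of called genes are therefore also given without these 4 libraries, a choice made after seeing the data.

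Most conjugation genes had fold changes below 0 at every day. At day 3, 8 members were called lower and 0 higher, against 1.71% of all tested genes called lower and 2.95% called higher. Gstm3, Gsta1, and Gstp1 were the 3 members higher at an unadjusted p under 0.05 at that day, and DESeq2 called Gstm3. At day 6, 13 members were called lower and 2 higher, against 4.37% and 8.42% of all genes. At day 12, 3 were called lower and 1 higher, against 3.27% and 4.56%. At day 21, 4 were called lower and 0 higher, against 0.916% and 2.21%, while 3 members were higher at an unadjusted p under 0.05 and DESeq2 called 1, Gstm5. The HNKO libraries lay below all WT libraries without overlap for 6, 9, 4, and 14 members at the 4 days, against 1.8%, 4.68%, 2.14%, and 6.7% of all genes. They lay above all WT libraries for 0, 1, 1, and 4 members, against 2.31%, 8.08%, 2.65%, and 7.25%. At an unadjusted p under 0.05, 28, 31, 22, and 19 members were lower, against 9.35%, 11.7%, 11.3%, and 7.63% of all genes. At the same level 3, 2, 5, and 3 members were higher, against 11.5%, 15%, 13.1%, and 10.4%. At days 3, 6, and 21 the share of members called lower (14%, 22.8%, and 7.02%) was several times the share of all genes, and at day 12 (5.26%) it was near it. The day 12 count of 3 also depended on the fit, with 14 members called lower when a score of clock genes was a covariate, 7 with the library number range as a covariate, 5 with DESeq2, and 0 with the scaling to hepatocyte markers. In the same order, these fits called 3763, 2000, 2053, and 1213 of all genes in either direction at day 12. The standard edgeR test called 663 lower and 925 higher. That score, the mean standardized level of genes in phase with Dbp minus that of genes in phase with Arntl, was -2.52 to -1.69 in 4 WT libraries of day 12 and 3.67 in the remaining library, against -0.859 to 2.37 in HNKO. The counts also changed with single libraries. At day 3 the number of members called lower ranged from 1, without WT library 25 or HNKO library 2 or 23, to 17 without HNKO library 4. At day 6 the count ranged from 4 without HNKO library 29 to 19 without HNKO library 31. At day 12 it ranged from 1, without WT library 15 or 34 or HNKO library 13, to 6 without HNKO library 36, and at day 21 from 0, without HNKO library 37 or 38, to 5 without WT library 21.

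Fold changes below 0 prevailed at each day. The fold change was below 0 for 45, 47, 46, and 49 of the 57 members at days 3, 6, 12, and 21, compared with 48.1%, 51.8%, 49.7%, and 51.7% of all tested genes, and for 40 members at all 4 days. By family, 12, 15, 16, and 16 of the 21 GST genes, 17, 16, 15, and 17 of the 19 UGT genes, and 16, 16, 15, and 16 of the 17 SULT genes were below 0 at the 4 days. At day 3 the GST share, 57.1%, was near that of all genes. Called lower were 3, 6, 3, and 1 GST, 2, 4, 0, and 0 UGT, and 3, 3, 0, and 3 SULT genes, and the genes called higher were all GST. The median log2 fold change of the members was -0.47, -0.53, -0.33, and -0.41, whereas that of all tested genes lay between -0.01 and 0.01. The family medians were -0.18, -0.42, -0.28, and -0.28 for GST, -0.55, -0.53, -0.31, and -0.39 for UGT, and -1.72, -0.88, -0.98, and -1.57 for SULT. The 6 members above 0 at all 4 days were Gsta1, Gstm3, Gstm5, Gstp1, Gstp2, and Sult4a1, of which Gsta1 met the count minimum only in HNKO libraries. The log2 difference of the summed hepatocyte markers (HNKO minus WT, difference ± SE) was -0.40 ± 0.14, -0.54 ± 0.14, -0.27 ± 0.10, and -0.33 ± 0.19 at the 4 days, near the median of the 57 members and smaller in size than the SULT medians. The summed pericentral hepatocyte markers had medians of 9576 CPM in WT and 6128 in HNKO at day 3 and 10020 and 7172 at day 6, and the periportal ones 14780 and 14300 at day 3 and 15190 and 14360 at day 6, with overlap between the genotypes for each. Of 8 pericentral markers 1 was called lower at day 6, and of 8 periportal markers none at any day. Summed lymphocyte markers lay at 37.3 to 47.0 CPM in WT and 59 to 122 in HNKO at day 6 and at 29.7 to 44.4 and 47.5 to 79.2 at day 21, without overlap, and overlapped at days 3 and 12. The part of these cell types in the results was not tested. Whether the shift of the families reflects the hepatocyte content of the tissue was not tested. When libraries were scaled to their summed hepatocyte markers, also a choice made after seeing the data, the members called lower were 8, 2, 0, and 4 at days 3, 6, 12, and 21, and those called higher 6, 5, 1, and 1. Of all 20297 genes tested, 5995, 9772, 1213, and 748 were called in either direction in that fit. Under this scaling, which moved the median of all genes by 0.42, 0.57, 0.26, and 0.32 on the log2 scale, the members called lower at day 3 were Gstt3, Sult5a1, and 6 genes of the Sult2a and Sult3a groups, those at day 6 Gstt3 and Sult2a3, and those at day 21 Gstt3, Sult2a1, Sult2a2, and Sult2a3. The members called higher were Gsta1, Gstm3, Gstm5, Gstp1, Ugt1a2, and Ugt1a6b at day 3, Gsta1, Gstm5, Gstp1, Gstp2, and Ugt2b35 at day 6, Gstp2 at day 12, and Gstm5 at day 21.

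**Figure D1:**
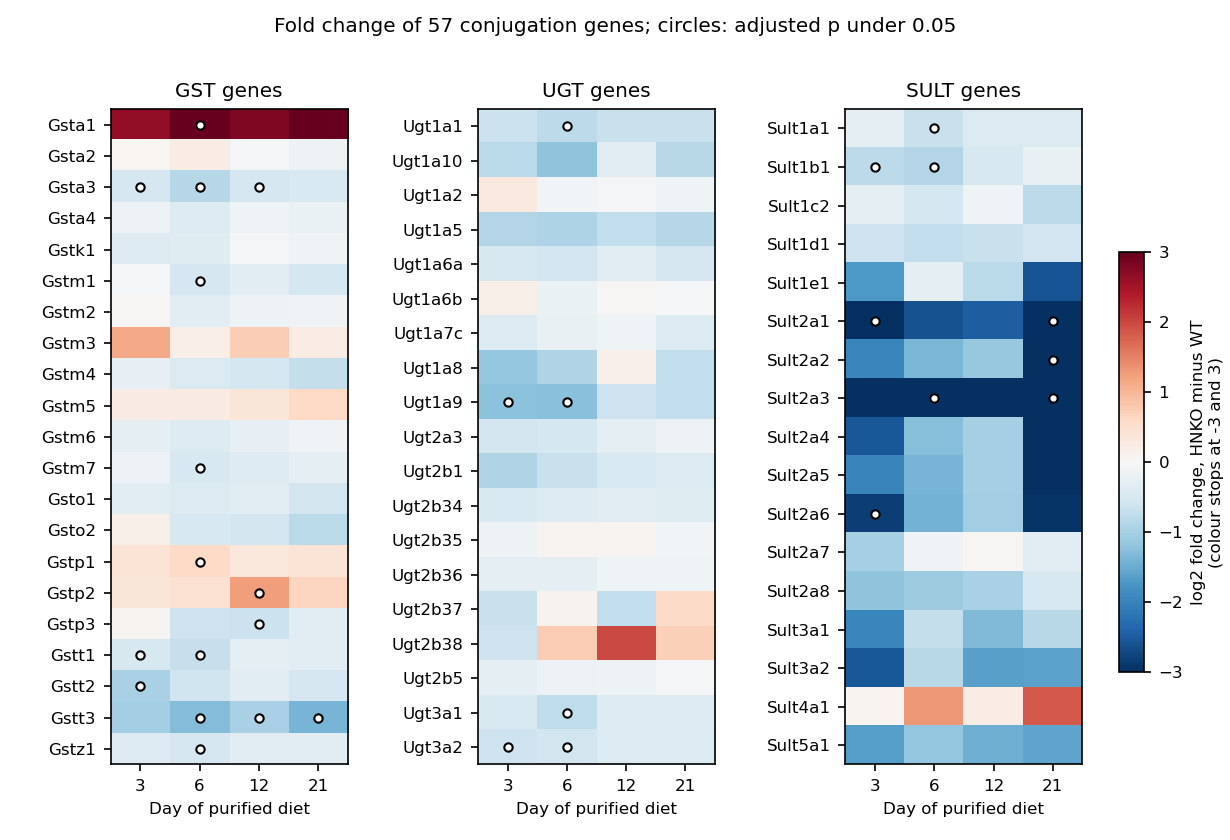
Log2 fold change (HNKO minus WT) of the 57 members at each day of PD, in 1 panel per family, with circles where the adjusted p was under 0.05. Blue prevails in all 3 panels, 40 members are below 0 at all 4 days, and Sult2a1 and Sult2a3 are dark blue at each day, with some of their cells beyond the colour limit.

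Which genes were called changed with the libraries used. Without the 4 HNKO libraries with the highest bile duct markers, 1 member (Gstt2) was called lower by edgeR at day 3, 6 were at day 6, and 9 at day 12. No member was called lower at day 21, where 2 HNKO libraries remained. None of the 4 libraries is of day 12, so the libraries compared at that day were the same in both fits. Over all 20503 genes tested in this fit, 195, 1494, 2187, and 40 were called in either direction at days 3, 6, 12, and 21. Of the 31 calls, 3 held in each of 9 other ways of fitting the data and in every fit that left out 1 library, namely Gstt2 at day 3 and Gsta3 and Gstt3 at day 6. Of these 3 calls, that of Gstt3 also held with the scaling to hepatocyte markers, whereas those of Gstt2 and Gsta3 did not. Over all 31 calls, 11 held under that scaling.

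Summed over each family, transcript levels were lower in HNKO livers. The summed GST level had a median of 3050.0 CPM in WT and 2354 CPM in HNKO at day 3, 3426 and 2188 at day 6, 3181 and 2534 at day 12, and 2669 and 2098 at day 21. All HNKO libraries were below all WT libraries at each day. The SULT sum went from 1405 to 754 CPM at day 3, 1530.0 to 912 at day 6, 1230.0 to 819.5 at day 12, and 1230.0 to 824 at day 21, again without overlap at any day. The UGT sum was 3124 and 2148 CPM at day 3 and 2966 and 2554 CPM at day 21, and 4 of 5, 4 of 5, 4 of 6, and 2 of 3 HNKO libraries were below all WT libraries at the 4 days. These sums are a description without a test.

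**Figure D2:**
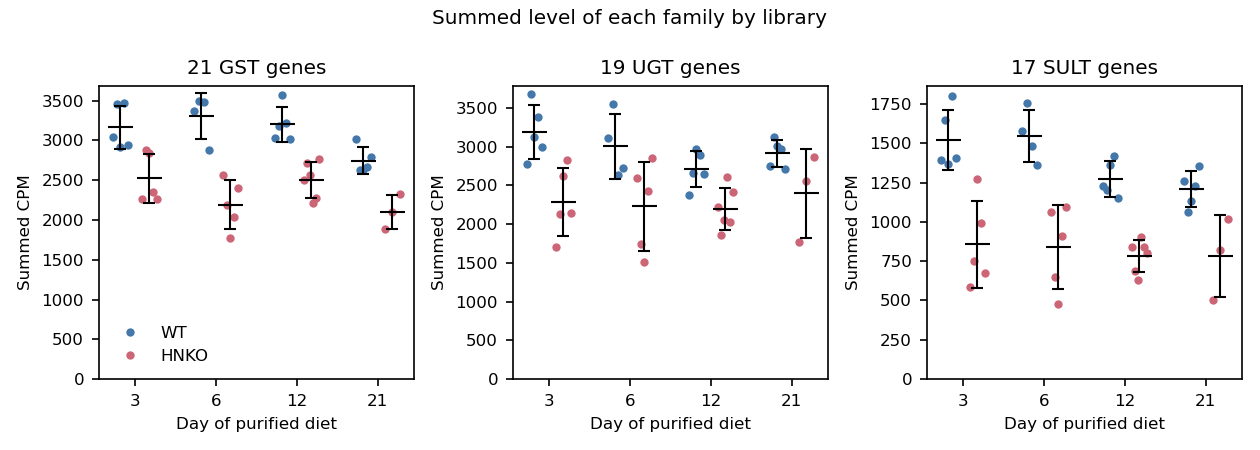
Summed CPM of the GST, UGT, and SULT genes in each library by day of PD, with the mean and SD of each group in black. HNKO libraries (red) lie below all WT libraries (blue) of the day for GST and SULT, while for UGT 1 or 2 HNKO libraries reach into the WT range at each day.

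Gsta3 (GRCm38 chr1:21240589-21265661, forward strand), an alpha class enzyme and among the most abundant transferases of the mouse liver, was called lower at 3 of the 4 days. At day 3 it measured 849, 893, 909, 1011, and 1092 CPM in WT and 519.8, 552, 674, 779.9, and 839.6 CPM in HNKO. At day 6 the values were 874, 1037, 1048, and 1152 CPM in WT and 445, 550.2, 567.9, 602, and 664 CPM in HNKO. All 5 HNKO livers were below all WT livers at both days, with log2 fold changes of -0.50 ± 0.14 (adjusted p = 0.0319) and -0.86 ± 0.15 (adjusted p = 0.000237), the second a decrease of 45%. At day 12 the 6 HNKO libraries measured 651 at the lowest, 680.4 at the median, and 882 CPM at the highest, compared with 868, 894, 974, 1067, and 1279 CPM in WT, and 5 of 6 were below all WT libraries (-0.51 ± 0.13, adjusted p = 0.0154). At day 21 the HNKO values were 499.7, 618, and 796 CPM and the WT values 781, 804, 821, 934, and 1018 CPM, and the difference did not pass the threshold (-0.45 ± 0.16, adjusted p = 0.116). Its call at day 3 was lost without WT library 5 or 25 or HNKO library 2 or 23 (adjusted p of up to 0.118). That at day 12 was lost without WT library 16 (adjusted p = 0.0636). Its 3 calls were lost when libraries were scaled to the hepatocyte markers (adjusted p = 0.545, 0.0663, and 0.25 at days 3, 6, and 12).

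The class theta transferases, which act on small halogenated compounds and epoxides, behaved alike in direction. Gstt1, Gstt2, and Gstt3 lie close to each other on the reverse strand of GRCm38 chromosome 10. Gstt3 (chr10:75774115-75781414, reverse strand) measured 60.5, 70, 88.7, and 101 CPM in WT and 12.6, 22, 31.3, 48.2, and 48.9 CPM in HNKO at day 6, so that all 5 HNKO livers were below all WT livers (-1.30 ± 0.33, adjusted p = 0.00901). At day 12 the HNKO libraries measured 23.9 at the lowest, 26.7 at the median, and 60.9 CPM at the highest against 52.5, 56.7, 67.2, 71.5, and 90.8 CPM in WT, and 1 HNKO library lay within the WT range (-0.97 ± 0.30, adjusted p = 0.0422). At day 21 the values were 13.4, 21.5, and 21.9 CPM in HNKO and 35.8, 42.5, 53.1, 54.1, and 62.5 CPM in WT, without overlap (-1.39 ± 0.39, adjusted p = 0.0413). At day 3 the spread in HNKO was wide, with 17.9, 18.3, 38.7, 44.1, and 70.9 CPM, against 62.8, 72.2, 73.9, 79.3, and 94.4 CPM in WT, and the test missed the threshold (-1.01 ± 0.32, adjusted p = 0.0572). Its day 12 call was lost without WT library 14, 15, 33, or 34 or HNKO library 11, 12, 13, or 32 (adjusted p of up to 0.112). That at day 21 was lost without WT library 19, 20, 39, or 41 or HNKO library 37, 38, or 40 (adjusted p of up to 0.448). Of the exon bases of Gstt3, 13.6% overlap another gene on the same strand.

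Gstt2 fell at day 3. It measured 50.3, 71.1, 72.3, 73.2, and 74.5 CPM in WT and 29.2, 31.8, 32.5, 39.8, and 41.6 CPM in HNKO livers, with no overlap and a decrease of 48.7% (-0.96 ± 0.22, adjusted p = 0.0108). Leaving out any 1 library kept this call, but the scaling to hepatocyte markers did not (-0.50, adjusted p = 0.0787). At day 6 the values were 62.7, 70.7, 108, and 112 CPM in WT and 29.7, 53.2, 56.9, 65.1, and 87.2 CPM in HNKO (-0.60 ± 0.23, adjusted p = 0.0832), and at days 12 and 21 the groups also overlapped, with log2 fold changes of -0.31 ± 0.21 and -0.51 ± 0.26 (adjusted p = 0.371 and 0.287). Gstt2 was 1 of 3 members with a day effect in HNKO (adjusted p = 0.0413): its median there was 32.5, 56.9, 52.8, and 73.3 CPM at days 3, 6, 12, and 21. WT library 16 of day 12 measured 119 CPM while the other 4 WT libraries of that day lay at 53.6 to 59.4 CPM, and it also had a clock gene score of 3.67 where the others had scores between -2.52 and -1.69. In the fit with this score as a covariate, Gstt2 was called lower at day 12.

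Gstt1, the highest of the 3 by level per kilobase, measured 228, 252, 268, and 282 CPM in WT and 100, 119, 189, 191, and 202 CPM in HNKO at day 6. The HNKO livers were all below the WT livers (-0.69 ± 0.14, adjusted p = 0.00157), and the call held without any single library. At day 3, 4 of 5 HNKO livers were below all WT livers, with 157 to 226 CPM against 224 to 279.5 CPM (-0.47 ± 0.14, adjusted p = 0.0379). This call was lost without WT library 5, 24, 25, or 26 or HNKO library 2, 3, or 23 (adjusted p of up to 0.125). The fold changes at days 12 and 21 were -0.28 ± 0.13 and -0.33 ± 0.16, and neither passed the threshold (adjusted p = 0.174 and 0.265), although 3 of 3 HNKO livers of day 21 were below all WT livers.

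**Figure D3:**
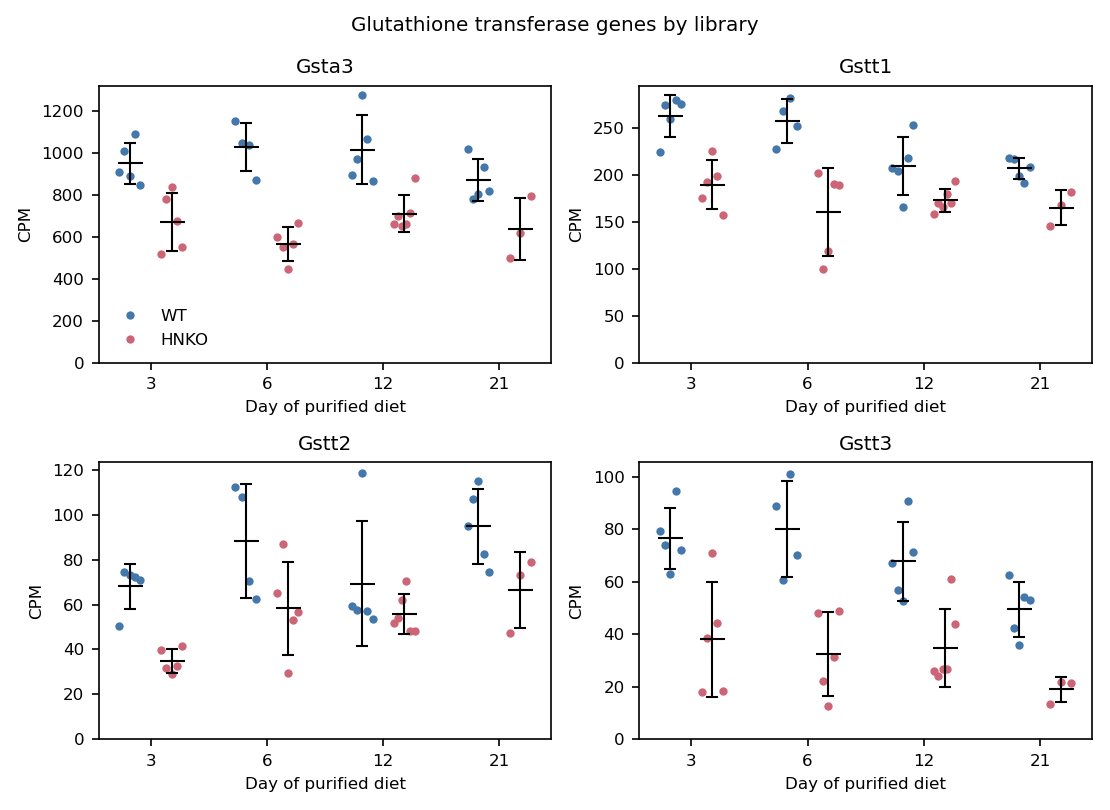
CPM of Gsta3, Gstt1, Gstt2, and Gstt3 in each library (points) by day of PD, with the mean and SD of each group in black. Gsta3 does not overlap between genotypes at days 3 and 6, Gstt2 not at day 3, and for Gstt3 the HNKO values spread from 17.9 to 70.9 CPM at day 3.

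The mu class, the largest GST class of the set, held 2 called genes, Gstm1 and Gstm7, both at day 6. Gstm1, the GST member with the highest level per kilobase in WT, measured 482, 509.8, 593, and 704 CPM in WT and 337, 366, 399.9, 422, and 479 CPM in HNKO at day 6, which did not overlap (-0.51 ± 0.17, adjusted p = 0.0392). At day 3 it did not differ beyond the spread, with 464, 486, 533, 552, and 583 CPM in WT and 338, 428, 553, 598, and 599.8 CPM in HNKO (-0.06 ± 0.16, 95% interval -0.38 to 0.27). At day 12 it ranged over 339 to 707 CPM in HNKO and 577 to 706 CPM in WT (-0.33 ± 0.15, adjusted p = 0.174). At day 21 its HNKO libraries, at 326, 334, and 409.8 CPM, were all below the WT libraries, at 418, 488, 541, 563, and 578 CPM, but the test missed the threshold (-0.54 ± 0.19, adjusted p = 0.103). The call at day 6 was lost without WT library 10 or 27 or HNKO library 7, 29, 30, or 31 (adjusted p of up to 0.152). Gstm7 fell at day 6 (49.2 CPM in WT and 36 in HNKO at the median, -0.47 ± 0.14, adjusted p = 0.0282). This call was lost without WT library 27 or HNKO library 7, 29, or 30 (adjusted p of up to 0.135). Both calls of this class at day 6 were lost when libraries were scaled to the hepatocyte markers, where the fold changes were 0.05 for Gstm1 and 0.07 for Gstm7. The standard edgeR test called none of Gstm2, Gstm3, Gstm4, Gstm5, and Gstm6 at any day, whereas DESeq2 called Gstm3 at day 3, Gstm4 at days 12 and 21, and Gstm5 at day 21, other edgeR fits also called Gstm5 at day 21, and the scaling to hepatocyte markers called Gstm3 at day 3 and Gstm5 at days 3, 6, and 21. Gstm3 had positive fold changes of 1.14, 0.19, 0.73, and 0.22, and Gstm5 of 0.25, 0.24, 0.36, and 0.60 with all 3 HNKO libraries of day 21 above the WT libraries.

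The pi class held the higher calls together with Gsta1. Gstp1, which is also found in bile duct cells, measured 46.2, 50.8, 52.6, and 53.3 CPM in WT and 56.8, 70.4, 73.5, 74.9, and 109 CPM in HNKO at day 6, all HNKO above all WT (0.60 ± 0.18, adjusted p = 0.0202). The highest of these was library 29, the library with the highest bile duct marker sum, and the call was lost without WT library 8 or HNKO library 29 (adjusted p of up to 0.103). The summed bile duct markers were 175 to 766 CPM in HNKO and 42.2 to 56.1 CPM in WT at that day, and their part in this rise was not tested. Gstp1 was also above all WT libraries in 3 of 3 HNKO libraries at day 21 (71.2 to 91.8 CPM against 58.1 to 63.1 CPM), with 0.42 ± 0.19 and an adjusted p of 0.217. Gstp2 was called higher at day 12 (1.26 ± 0.38, adjusted p = 0.0357) from 81 counts in the 6 HNKO and 26 counts in the 5 WT libraries. Since 54.1% of its 51-base stretches also occur in other genes, mostly Gstp1, the reads cannot be assigned to it with certainty. The call was lost without WT library 14, 16, 33, or 34 or HNKO library 11, 35, or 36 (adjusted p of up to 0.0884). Gstp3 differed from both and was called lower at day 12, with a median of 50.8 CPM in WT and 26.9 in HNKO (-0.65 ± 0.20, adjusted p = 0.0405). This call was lost without WT library 15, 16, or 34 or HNKO library 11, 13, 32, 35, or 36 (adjusted p of up to 0.107). In WT alone Gstp3 changed with the day (adjusted p = 0.0217), with its highest median at day 12.

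Gsta1 was called higher at day 6 (adjusted p = 0.0284) from 99 counts in the 5 HNKO livers and 3 counts in the 4 WT livers, too few for a fold. HNKO library 29 held 62 of the 99 and HNKO library 7 held 31, and the call was lost without WT library 8, 10, 27, or 28 or HNKO library 7 or 29 (adjusted p of up to 0.143). At the other days, without a call, it held 61 counts in HNKO against 9 in WT at day 3, 50 against 5 at day 12, and 15 against 3 at day 21. Since 90.3% of its 51-base stretches also occur in other genes, mostly Gm3776, the identity of these reads is uncertain. Gsta1 met the count minimum for members only through HNKO libraries, so its higher call is not independent of that rule. Gstz1, the maleylacetoacetate isomerase of tyrosine breakdown, fell at day 6 (729 CPM in WT and 558 in HNKO, -0.51 ± 0.16, adjusted p = 0.0353). This call was lost without WT library 8 or 10 or HNKO library 7, 29, or 30 (adjusted p of up to 0.188). Gsta2, Gsta4, Gstk1, Gsto1, and Gsto2 were not called at any day by the standard edgeR test (DESeq2 called Gsto1 lower at day 21), with log2 fold changes between -0.81 and 0.22.

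Among the UGT genes, the bilirubin enzyme Ugt1a1 (GRCm38 chr1:88211959-88218997, forward strand) and Ugt1a9, which acts on phenols and drugs, were called at 1 and 2 days. The 9 Ugt1a members each have a first exon of their own and share the exons that follow, so that 58.9% of the exon bases of Ugt1a1 and 59.9% of those of Ugt1a9 belong to more than 1 gene and their counts are uncertain. Ugt1a9 measured 26.7, 30.2, 42.4, 51.2, and 52 CPM in WT and 8.58, 9.97, 18, 20, and 29.7 CPM in HNKO at day 3, where 4 of 5 HNKO libraries were below all WT libraries (-1.22 ± 0.34, adjusted p = 0.0333). At day 6 the values were 39.8, 43.7, 43.9, and 47.7 CPM in WT and 9.14, 13.2, 19.5, 20.9, and 29.6 CPM in HNKO, which did not overlap (-1.25 ± 0.36, adjusted p = 0.0186). Its call at day 3 was lost without WT library 5, 24, or 25 or HNKO library 2, 3, or 23 (adjusted p of up to 0.114). That at day 6 was lost without HNKO library 7 or 29 (adjusted p of up to 0.0747). At day 12 Ugt1a9 ranged over 9.9 to 30.1 CPM in HNKO and 26.9 to 38.9 CPM in WT, and at day 21 over 13.2 to 54.1 CPM and 28.4 to 77.8 CPM, with overlap at both days (-0.62 ± 0.32 and -0.74 ± 0.40, adjusted p = 0.233 and 0.328).

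Ugt1a1 was similarly lower at all 4 days but was called only at day 6. At that day it measured 177, 194, 262, and 366 CPM in WT and 67.1, 152, 158, 160.0, and 192 CPM in HNKO, and 1 HNKO library lay within the WT range (-0.78 ± 0.26, adjusted p = 0.0444). The call was lost without WT library 8 or 10 or HNKO library 7, 29, or 30 (adjusted p of up to 0.236). The log2 fold changes at days 3, 12, and 21 were -0.64 ± 0.25, -0.66 ± 0.24, and -0.67 ± 0.29 (adjusted p = 0.126, 0.0751, and 0.208). The ranges at these days were 152 to 280.0 CPM in WT and 98.7 to 205 CPM in HNKO at day 3, 164 to 397 CPM and 93.5 to 187 CPM at day 12, and 193 to 242 CPM and 93.3 to 164 CPM at day 21. The summed Ugt1a level, which does not depend on which Ugt1a gene a read of a shared exon was given to, was below all WT libraries in every HNKO library of each day, with medians of 457.5 and 285 CPM at day 3 and 468 and 346 CPM at day 21. Ugt1a6b and Ugt1a2 did not follow, with log2 fold changes between -0.19 and 0.17 and between -0.12 and 0.29.

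The Ugt2 genes, which glucuronidate steroids and bile acids, held 0 calls by the standard edgeR test at any of the 4 days. By that test 4, 4, 1, and 1 of these genes were lower at an unadjusted p under 0.05 at days 3, 6, 12, and 21. DESeq2 called Ugt2b1 and Ugt2b34 at day 3, and the scaling to hepatocyte markers called Ugt2b35 higher at day 6. Ugt2b5, with Ugt1a1 the UGT member of highest level per kilobase, measured 391 to 537 CPM in WT and 293 to 448 CPM in HNKO at day 3. It measured 315 to 479 CPM and 249.5 to 471 CPM at day 6 and 321 to 480.4 CPM and 288 to 443 CPM at day 12. At day 21 it measured 372 to 489.7 CPM in WT and 313 to 489 CPM in HNKO. The groups overlapped at each day, and the 95% interval of its log2 fold change was -0.62 to 0.04 at day 3 and -0.43 to 0.33 at day 21. Of the 51-base stretches of Ugt2b5, 41.2% also occur in other genes, mostly Ugt2b38, so its reads may be divided. Ugt2b1 and Ugt2b34 came closest to the threshold, both at day 3. Ugt2b1 measured 112 to 276 CPM in HNKO and 288 to 397 CPM in WT with no overlap (-0.90 ± 0.28, adjusted p = 0.0582), and Ugt2b34 259 to 425 CPM and 375 to 577 CPM with overlap (-0.45 ± 0.14, adjusted p = 0.0582). Ugt2b34, Ugt2b36, and Ugt2a3 were below 0 at all 4 days without a call. Both Ugt3a genes, whose enzymes use sugars other than glucuronic acid, were called. Ugt3a2 measured 407, 409, 434, 513, and 530.1 CPM in WT and 218, 243, 267, 366, and 409 CPM in HNKO at day 3 (-0.61 ± 0.17, adjusted p = 0.036), where 1 HNKO liver lay within the WT range. It fell again at day 6 (-0.56 ± 0.18, adjusted p = 0.0394), and Ugt3a1 fell at day 6 (-0.76 ± 0.25, adjusted p = 0.0387). For Ugt3a2 the call at day 3 was lost without WT library 5, 24, or 25 or HNKO library 2, 3, or 23 (adjusted p of up to 0.13). Its day 6 call was lost without WT library 8, 10, 27, or 28 or HNKO library 7 or 29 (adjusted p of up to 0.185). For Ugt3a1 it was lost without WT library 10, 27, or 28 or HNKO library 6, 7, 29, or 30 (adjusted p of up to 0.161). No UGT gene was called at day 12 or 21 by the standard edgeR test or DESeq2, where 4 and 3 were lower at an unadjusted p under 0.05.

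**Figure D4:**
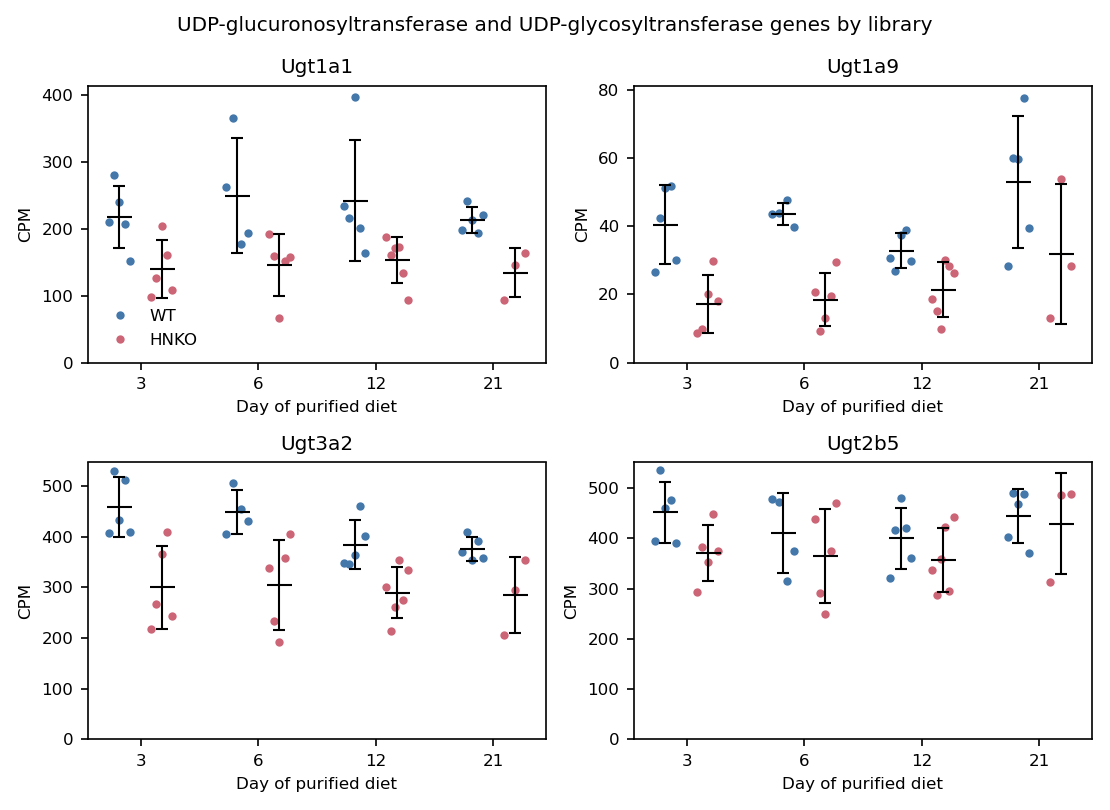
CPM of Ugt1a1, Ugt1a9, Ugt3a2, and Ugt2b5 in each library (points) by day of PD, with the mean and SD of each group in black. Ugt1a9 separates the genotypes at day 6, WT library 16 gives the highest Ugt1a1 value at day 12 (397 CPM), and Ugt2b5 overlaps at each day.

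Of the SULT1 genes, Sult1b1, which sulfates thyroid hormones and phenols, was called at days 3 and 6. It measured 24.7, 25.4, 27.6, 27.8, and 35.9 CPM in WT and 12.2, 12.4, 14.1, 20.9, and 22.6 CPM in HNKO at day 3, and 26.6, 28.2, 29, and 40.5 CPM in WT and 8.95, 12.8, 17.6, 19.7, and 25.6 CPM in HNKO at day 6. All HNKO livers were below all WT livers at both days, with decreases of 41.8% (-0.78 ± 0.22, adjusted p = 0.031) and 45.6% (-0.88 ± 0.23, adjusted p = 0.00899). At day 12 the difference was -0.47 ± 0.20 (adjusted p = 0.144), and at day 21 it was -0.23 ± 0.25 with a 95% interval of -0.73 to 0.28. Its call at day 3 was lost without WT library 5, 24, or 25 or HNKO library 2, 3, or 23 (adjusted p of up to 0.108). That at day 6 was lost without WT library 10 or HNKO library 29 (adjusted p of up to 0.0539).

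Sult1a1, the main phenol sulfotransferase and the SULT member with the highest level per kilobase, was called at day 6. It measured 411, 576, 675, and 698 CPM in WT and 299.8, 317, 329.6, 426, and 499.6 CPM in HNKO, which overlapped (-0.66 ± 0.18, adjusted p = 0.0145). The call was lost without WT library 8 or 10 or HNKO library 29 or 30 (adjusted p of up to 0.0791). At day 12 all 6 HNKO libraries were below all WT libraries, with 282 at the lowest, 409 at the median, and 444 CPM at the highest against 448, 505, 564, 577, and 591 CPM, but the test missed the threshold (-0.44 ± 0.16, adjusted p = 0.0863). At days 3 and 21 the groups overlapped (-0.29 ± 0.17 and -0.42 ± 0.20, adjusted p = 0.337 and 0.255). Sult1d1, an enzyme of catecholamines and eicosanoids, was below 0 at all 4 days with fold changes between -0.74 and -0.57 and no call by the standard edgeR test, while DESeq2 called it at day 6. Sult1c2 was 1 of 2 members with a day effect in both genotypes (adjusted p = 0.024 in WT and 0.0314 in HNKO), and its WT median went from 15.1 CPM at day 3 to 18.6, 22.9, and 26.1 CPM at days 6, 12, and 21.

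Sult2a1 and Sult2a3 had the lowest fitted fold changes of the members at each day, with standard errors too wide to rank one against the other and few HNKO counts behind Sult2a3. Both belong to the Sult2a cluster, the hydroxysteroid and bile acid sulfotransferases on GRCm38 chromosome 7. Sult2a1 (chr7:13796246-13837409, reverse strand) measured 3.11, 4.25, 18.9, 41.4, and 64.6 CPM in WT and 0.182, 0.261, 0.364, 3.96, and 5.94 CPM in HNKO at day 3. The highest HNKO values exceeded the lowest WT values, and the log2 fold change was -3.65 ± 1.05 (adjusted p = 0.0376). At day 21 Sult2a1 measured 4.01, 26.1, 52.8, 53.4, and 144 CPM in WT and 0.485, 0.985, and 3.21 CPM in HNKO, with no overlap (-5.12 ± 1.38, adjusted p = 0.0338). At days 6 and 12 the groups overlapped and the fold changes of -2.61 ± 0.96 and -2.48 ± 0.88 missed the threshold (adjusted p = 0.0699 and 0.0726). Its day 3 call was lost without WT library 5, 24, or 25 or HNKO library 2, 3, 22, or 23 (adjusted p of up to 0.113). That at day 21 was lost without WT library 19 or 41 or HNKO library 37, 38, or 40 (adjusted p of up to 0.254).

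Sult2a3 was the SULT member with the smallest p-value at days 6, 12, and 21. It measured 0.173, 1.03, 6.7, and 23.7 CPM in WT and 0.0455, 0.0466, 0.102, 0.506, and 0.854 CPM in HNKO at day 6, where the lowest WT liver lay within the HNKO range (-4.79 ± 1.17, adjusted p = 0.00599). At day 12 the HNKO libraries measured 0.0718 at the lowest, 0.232 at the median, and 1.38 CPM at the highest and the WT libraries 0.638, 1.29, 3.23, 5.59, and 8.12 CPM (-3.01 ± 0.98, adjusted p = 0.0512). At day 21 the WT values were 0.259, 1.28, 6.04, 14, and 28.4 CPM, and the 3 HNKO libraries held 5 counts in all against 1240 in the 5 WT libraries (adjusted p = 0.018). At day 3, 4 of 5 HNKO libraries were at 0 counts and the remaining library held 2, against 94 counts in the 5 WT libraries (adjusted p = 0.0964). Its call at day 6 was lost without WT library 27 (adjusted p = 0.0699). That at day 21 was lost without HNKO library 37, 38, or 40 (adjusted p of up to 0.236). Sult2a2 fell at day 21 (-3.50 ± 0.96, adjusted p = 0.0383) and Sult2a6 at day 3 (-2.83 ± 0.78, adjusted p = 0.0319). The call of Sult2a2 was lost without WT library 19, 39, or 41 or HNKO library 37, 38, or 40 (adjusted p of up to 0.236). That of Sult2a6 was lost without WT library 24 or 25 or HNKO library 2, 3, or 23 (adjusted p of up to 0.0992). Some of these sequences resemble each other: 61.5% of the 51-base stretches of Sult2a2 and 32.6% of those of Sult2a1 also occur in other genes. Sult2a1 and Sult2a2 share most with each other, so reads may be divided between them. For Sult2a3 and Sult2a6 the shares were 7.7% and 6.3%.

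The genes Sult2a1 to Sult2a6 also varied more than most other members among WT mice, whereas Sult2a7 and Sult2a8 had SDs of 0.74 and 0.38. Within WT groups the SD of log2 CPM was 1.84 for Sult2a1 and 2.19 for Sult2a3, compared with a median of 0.37 over the 57 members, and the 6 genes Sult2a1 to Sult2a6 were among the 7 members with the largest SD. In WT, mostly the same livers were low for these genes. The lowest WT library of the group was library 1 at day 3 for 5 of these 6 genes, and library 8 at day 6, library 15 at day 12, and library 21 at day 21 for 6 of 6. The summed CPM of Sult2a1 to Sult2a6 differed between the highest and the lowest WT library by 9.985-fold at day 3, 15.7-fold at day 6, 7.75-fold at day 12, and 19.03-fold at day 21. In HNKO, library 22 at day 3 and library 13 at day 12 were each the lowest for 3 of 6 genes. Library 29 at day 6 and library 38 at day 21 were the lowest for 5 of 6, and at day 21 library 37, the library with the high bile duct markers, was the highest for 6 of 6.

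In WT, the libraries lowest for Sult2a7 and Sult2a8 of the same cluster were other ones at each day. Sult2a8, a bile acid sulfotransferase and the second SULT member by level per kilobase, measured 492.9, 515, 549, 552, and 690.4 CPM in WT and 123, 137, 155, 367, and 434 CPM in HNKO at day 3. All HNKO livers were below all WT livers, but with this spread the log2 fold change of -1.20 ± 0.45 missed the threshold (adjusted p = 0.108). The fold changes at days 6, 12, and 21 were -1.07 ± 0.47, -0.98 ± 0.42, and -0.47 ± 0.52 (adjusted p = 0.132, 0.142, and 0.694). Its lowest WT library was 24, 27, 14, and 19 at days 3, 6, 12, and 21, which were the libraries highest for 5, 6, 5, and 5 of the genes Sult2a1 to Sult2a6. Sult2a7 was between -0.99 and 0.04 without a call. Sult3a1, Sult3a2, and Sult5a1 were below 0 at all 4 days, with fold changes of -1.97, -2.54, and -1.66 at day 3. They were not called at any day by the standard edgeR test, whereas the edgeR 4 computation called Sult3a2, DESeq2 called Sult3a1 and Sult5a1, and the scaling to hepatocyte markers called all 3, each at day 3. Sult1e1, the estrogen sulfotransferase, and Sult4a1 were near the count floor, with medians under 1 CPM in every group, and were not called.

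**Figure D5:**
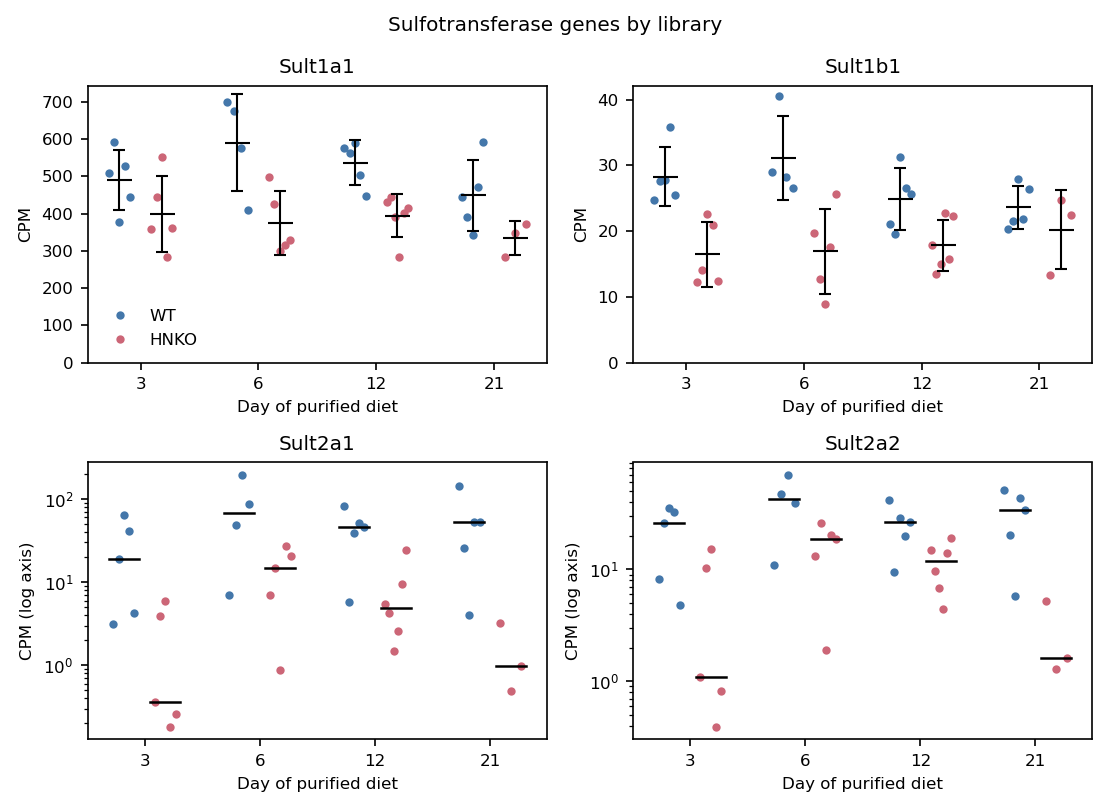
CPM of Sult1a1 and Sult1b1 (linear axes, mean and SD in black) and of Sult2a1 and Sult2a2 (log axes, medians in black) in each library by day of PD. The Sult2a panels show a wide spread among WT libraries, from 3.11 to 194.6 CPM for Sult2a1, with the HNKO libraries of day 21 below all WT libraries of that day.

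Since 5 members were called lower at both day 3 and day 6, the sequence ahead of the gene starts was read for motifs of factors known to act on these families. RefSeq promoters (GRCm38.p6) were found for 49 of the 57 members, with 59 starts, and 250 bases before each start were searched on both strands for 4 motifs. TGACNNNGC, the core of the antioxidant response element bound by NRF2, was in 3 of the 59 member promoters (5.08%) and in 10.2% of all 32851 promoters. GCGTG, the core bound by AHR, was in 16.9% of member promoters and 28.2% of all. The E-box CACGTG was in 0 and 6.02%, and AGGTCA, a core bound by nuclear receptors, in 18.6% and 14%. Of the 5 members called at both days, Gsta3 held TGACNNNGC, Ugt1a9 and Sult1b1 held AGGTCA, and Sult1b1 also held GCGTG. A match of letters is a description and no measured binding. The windows of the matches upstream of Gsta3, Ugt1a9, and Sult1b1 are shown with the match in capitals, 5′ to 3′ on the strand of the gene.
Gsta3, chr1:21240438-21240497, forward strand, match to TGACNNNGC: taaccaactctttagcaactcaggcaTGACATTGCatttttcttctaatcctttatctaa
Ugt1a9, chr1:88070552-88070608, forward strand, match to AGGTCA: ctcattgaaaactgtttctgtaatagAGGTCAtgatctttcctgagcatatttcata
Sult1b1, chr5:87538288-87538344, reverse strand, match to AGGTCA on the opposite strand: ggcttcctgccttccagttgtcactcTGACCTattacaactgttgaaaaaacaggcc
The match lies 121 bases before the start of Gsta3, 201 before that of Ugt1a9, and 123 before that of Sult1b1.

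No change of the genotype effect with the day was called for a conjugation gene. The interaction of genotype and day was called for 0 of the 20297 genes, with 966 (4.76%) at an unadjusted p under 0.05, and no member was under that value by edgeR, the lowest being Gstp3 (unadjusted p = 0.0681). DESeq2 also called 0 members. A call at 1 day and not at another therefore does not show a different effect. Within WT, 4 members changed with the day (Gstp3, Sult1c2, Ugt2b37, and Ugt2b38), against 5.84% of all genes, and within HNKO 3 (Gstt2, Sult1c2, and Ugt2b37), against 7.9%. The median of Ugt2b37 in WT was 19.7 CPM at day 3 and 7.71, 3.88, and 6.49 CPM at days 6, 12, and 21 (adjusted p = 0.00365), and in HNKO it was 13.6, 9.69, 2.61, and 9.51 CPM (adjusted p = 0.0117).

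Of the 57 members, 21 were called at 1 or more days (18.7% of all tested genes), 8 at 2 or more (6.39%), 2 at 3 or more (2.45%), and 0 at all 4 (0.897%). The 2 were Gsta3 and Gstt3. Days 3 and 6 shared 5 calls (Gsta3, Gstt1, Sult1b1, Ugt1a9, and Ugt3a2) of 8 and 15.

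Genes that supply the conjugation reactions were read from 3 lists. Of the 6 genes of PAPS supply, 0, 2, 2, and 1 fell at days 3, 6, 12, and 21. Papss2, which makes the sulfate donor, fell at day 6 from 476 to 265 CPM on average (-0.84 ± 0.19, adjusted p = 0.00308). It fell again at day 12 (-0.73 ± 0.17, adjusted p = 0.00941). Bpnt1, which breaks down the spent donor, fell at days 6, 12, and 21. Of the 7 tested genes of glutathione supply, only the cystine transporter gene Slc7a11 was called, higher at days 3, 6, and 12 (0.0362 CPM in WT and 3.31 in HNKO on average at day 6, adjusted p = 0.000296). Of 4 genes of UDP-glucuronate supply and use, Gusb, the glucuronidase that reverses the reaction, rose at day 6 (0.42 ± 0.10, adjusted p = 0.00495), and the genes making UDP-glucuronate were not called. Of 12 other conjugating enzymes, Nat1 fell at day 3 and Hpgds rose at day 6. Of 6 transporters, Abcc1 rose at days 6 and 12 (1.14 ± 0.21, adjusted p = 0.000651 at day 6), and Abcc2 and Abcc6, of the canalicular and the basolateral membrane, fell at day 6.

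Of the 11 regulators listed, Nr1i3, which encodes CAR, fell at day 6 (109 to 47.2 CPM, -1.21 ± 0.30, adjusted p = 0.00756), and Ppara at day 3 (-0.64 ± 0.18, adjusted p = 0.0374). Nfe2l2, which encodes NRF2, Ahr, and Nr1i2, which encodes PXR, were not called at any day. Among 6 CAR and PXR targets outside the families, Cyp2c29 fell at days 6, 12, and 21 (-1.36 ± 0.30, adjusted p = 0.012 at day 21) and Ces2a at days 6 and 21, while Cyp3a11 rose at day 12. Of 8 NRF2 targets, Slc7a11 rose at days 3, 6, and 12 and Hmox1 at day 6. Of 5 AHR targets, Cyp1a2 fell at day 6 and Cyp1b1 rose at day 21. Since several Sult2a and Sult3a genes are expressed more in female than in male liver, lists of sex-biased genes were also read. Of 10 female-biased genes 3, 3, 2, and 0 fell at days 3, 6, 12, and 21 and 0 rose, with Acot3 among them at days 3, 6, and 12 (-2.21 ± 0.55, adjusted p = 0.0189 at day 3). Of 8 tested male-biased genes Mup20 rose at all 4 days (4.56 ± 0.78, adjusted p = 0.00153 at day 21) and Elovl3 fell at day 3.

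The members were also ordered by level per kilobase of exon over the 19 WT libraries (for Ugt1a genes over the bases not shared with other genes). The 2 highest GST members were Gstm1 (median 382 CPM per kilobase, range 284 to 479) and Gsta3 (215, range 180 to 294), whose ranges overlapped. The length is that of all annotated exons of a gene together, 1.473 kilobases for Gstm1 and 4.344 for Gsta3. Without division by length the order differed, with WT medians of 934 CPM for Gsta3, 686 for Gstz1, and 563 for Gstm1. The 2 highest UGT members were Ugt1a1 (233, range 167 to 435) and Ugt2b5 (227, range 170 to 289), which could not be ranked within their spread, and the first is an upper value since its count may include reads of shared exons. The 2 highest SULT members were Sult1a1 (338, range 228 to 463) and Sult2a8 (130, range 67.4 to 210), whose ranges did not overlap. At least 100 CPM per kilobase was reached by 4 GST, 7 UGT, and 2 SULT genes, and 6 of the 57 members were under 1.

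The labels number the libraries, and differences of mean log2 CPM (HNKO minus WT) were also taken within numbers 1 to 21 and within 22 to 41. They were -0.93 and -0.79 for Gsta3 at day 6, -1.17 and -1.65 for Gstt3 at day 6, -0.88 and -0.97 for Gstt2 at day 3, and -1.82 and -6.28 for Sult2a1 at day 3. Each mean rests on 2 or 3 libraries, and since the calls were made on these same libraries, the values are a description. At day 21 the 3 HNKO libraries used all lie in the second range with 2 of the 5 WT libraries, and the differences within it were -1.53 for Gstt3 and -5.41 for Sult2a1.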

How the data were processed

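Total RNA of whole liver from 40 mice was sequenced by the authors as 51-bp paired reads, aligned to GRCm38 with STAR 2.7.2b, and counted with featureCounts 1.6.4 on genes of GENCODE release M22 for fragments with both ends aligned; strand and multiple-mapping settings are not given in the sources used here. The authors deposited 1 table of raw counts per gene. The 38 libraries not described as failed were filtered with edgeR's filterByExpr (minimum count 10), which left 20297 genes and 99.937% of counts, normalized with TMM factors, and compared by edgeR's quasi-likelihood test (version 4.0.16, R 4.3.3, legacy dispersion) in a model holding a mean for each of the 8 groups. Adjusted p-values are Benjamini-Hochberg over all tested genes. Positions, exon lengths, and shared 51-base stretches came from GENCODE release M21. Log2 CPM used a prior count of 2. Each library is 1 mouse, and p-values cover the spread between mice.

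Members, lists, and tests were chosen with earlier results of these data known. Fully described are members called at 3 or 4 days, the smallest p-value of each family at each day, and the 2 highest levels per kilobase of each family. Gstt1, Gstp1, Ugt3a2, and Sult2a1 were added after their values were seen. Alternatives were RLE size factors, DESeq2 1.42.0, other filters, all 40 libraries, the 2 groups of a day alone, the edgeR 4 computation, a covariate for the label series or for a clock gene score, and fits without 1 of the libraries at a time.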

Additional observations from a re-analysis of the deposited data

Results flagged for a closer look

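Among the 11 fully described genes, 77 groups of 4 to 6 libraries were searched for a library far from the others, and 8 were found; chance gives about 1 in 20 groups. HNKO library 36 of day 12 measured 882.0 CPM of Gsta3, where the other 5 lay at 651 to 715 CPM. WT library 1 of day 3 measured 50.3 CPM of Gstt2, where the other 4 lay at 71.1 to 74.5 CPM. WT library 16 of day 12 measured 119.0 CPM of Gstt2 against 53.6 to 59.4 CPM, and it had the highest clock gene score of all 38 libraries. HNKO library 32 of day 12 stood apart for 2 genes in opposite directions, with 282.5 CPM of Sult1a1 against 392 to 444 CPM and 391.5 CPM of Sult2a8 against 92.2 to 176 CPM. WT library 25 of day 3 measured 35.86 CPM of Sult1b1 against 24.7 to 27.8 CPM. For Sult2a3 at day 3, WT library 24 measured 3.093 CPM against 0.1297 to 0.986 CPM, and HNKO library 3 measured 0.08599 CPM, which is 2 counts, where the other 4 were at 0.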

How the results depend on the processing

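Every called member kept the sign of its fold change in all alternatives, except Gstm1 and Gstm7 at day 6, which stood at 0.0489 and 0.0662 on the log2 scale when libraries were scaled to the summed hepatocyte markers. RLE size factors moved no count. Members called lower at days 3, 6, 12, and 21 were 8, 13, 3, and 4. They became 5, 7, 1, and 4 with no filter beyond 1 count, 1, 7, 1, and 8 with all 40 libraries, 2, 5, 5, and 6 with the 2 groups of a day alone, and 15, 14, 5, and 10 with DESeq2. The label series as a covariate gave 6, 14, 7, and 7, and the clock score 9, 17, 14, and 11. Over all genes, calls in either direction numbered 630, 1925, 1086, and 456 with no filter beyond 1 count and 331, 1321, 624, and 1350 with all 40 libraries. They numbered 420, 1325, 867, and 660 with the 2 groups alone and 1428, 2917, 2053, and 994 with DESeq2. The label series gave 1171, 2999, 2000, and 812, and the clock score 1008, 3100, 3763, and 1045. Members called higher were 0, 2, 1, and 0. They became 0, 2, 0, and 0 with no filter beyond 1 count, 0, 1, 0, and 0 with all 40 libraries, 0, 1, 1, and 2 with the 2 groups alone, 1, 2, 1, and 1 with DESeq2, and 0, 2, 3, and 1 with the clock score. At day 21, the filter of 10 counts in 3 libraries, the edgeR 4 computation, and the label series each gave 1. Members with a day effect, 4 in WT and 3 in HNKO, became 2 and 5 with all 40 libraries, 9 and 5 with the clock score, and 5 and 7 with DESeq2.

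Alternatives chosen after seeing the data were 3. Leaving out the 4 HNKO libraries with the highest bile duct markers gave 1, 6, 9, and 0 lower, 0, 0, 1, and 0 higher, and 9 members with a day effect in WT. Scaling to the hepatocyte markers gave 8, 2, 0, and 4 lower, 6, 5, 1, and 1 higher, and 1 member with a day effect in HNKO. Over all genes the first of these fits called 195, 1494, 2187, and 40 in either direction, and the scaling 5995, 9772, 1213, and 748. The third, the differences within ranges of library numbers, is given as values in the text. Leaving out 1 library gave 1 to 17, 4 to 19, 1 to 6, and 0 to 5 members lower at days 3, 6, 12, and 21, and 0 to 2, 0 to 2, 0 to 1, and 0 to 0 higher. The causes of these shifts were not tested. No paired analysis was possible because the library numbers in the labels are unique to each mouse and are shared by no groups. The number of livers, 3 in HNKO at day 21, and counts under 100 per group for Gsta1, Gstp2, and Sult2a3 at day 3 limit the precision. Sult2a3 held 2, 39, 87, and 5 counts in HNKO at days 3, 6, 12, and 21. The call of Sult2a6 at day 3 rested on 56 counts in HNKO and 355 in WT.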

Other observations

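The 2 HNKO libraries of day 21 described as having failed quality control were in no comparison. Library 17 lay below the 3 HNKO libraries used for 27 of the 57 members and below all WT libraries of day 21 for 38. Library 18 lay below the 3 HNKO libraries used for 11 members, above them for 12, and below all WT libraries for 27.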
